A study of Caenorhabditis elegans with 11 samples.

Results

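Wild-type Caenorhabditis elegans hermaphrodites of the N2 strain were compared at the youngest and the oldest age sampled under 2-deoxy-D-glucose (DOG), a glucose analogue that cells take up and phosphorylate but cannot break down further by glycolysis. The comparison rests on 5 of the 11 libraries, namely 3 libraries of worms after 1 day and 2 libraries of worms after 20 days on agar with 5 mM DOG. The 6 libraries at 5 and 10 days, 3 at each age, were used as a second reading. Every worm was N2 (var. Bristol), was moved to DOG plates after the last larval stage, was kept at 20 °C on heat-inactivated Escherichia coli and was washed daily so that offspring could be removed by settling. DOG was thus common to all groups, libraries without it were not analysed here, and age cannot be told apart from time on DOG. Each library was made from total RNA of pooled whole animals, with many more animals per sample at 1 day than at 20 days, and nothing states that the libraries of an age came from separate cultures, so the p-values measure the spread between these libraries, which may be technical.

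The worm's adult tissues are made of cells that no longer divide, apart from the germ line, and its organs can be followed through gene families that each organ uses heavily. The intestine secretes proteases, lysozymes and saposin-like proteins that digest bacteria and act in defence. Body wall muscle is packed with myosin, tropomyosin and troponin, the epidermis makes the cuticle and secretes antimicrobial peptides, and the hermaphrodite gonad makes a fixed supply of sperm before it switches to oocytes for the rest of life. In RNA from whole animals, fewer cells of a type and less RNA per cell cannot be told apart.

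Counts ran from 23648292 to 58499127 per library, and replicates varied by 4.1% beyond counting error (the biological coefficient of variation). Of the 45461 genes in the table, 14773 reached a sum of 100 counts across the 11 libraries, and these entered the quasi-likelihood test of edgeR. At an adjusted p under 0.01, 5689 genes, or 38.5% of those tested, were called higher at 20 days and 5611, or 38%, were called lower, around a median log2 change of -0.01. With so many genes called, the share of a family's members called in one direction has to be read against those percentages. Levels are given as CPM, the count of a gene relative to the scaled total of its library. All changes are log2 ratios of 20 days over 1 day. Their standard error (SE) was derived from the test, as the size of the change over the square root of its F statistic. It is thus approximate. Collagens, other cuticle body-shape genes, yolk proteins and the respiratory chain were left aside.

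All genes whose symbol is a prefix of 3 or 4 letters, a hyphen and a number were grouped by prefix, which gave 176 families with at least 6 tested members and 2877 genes. The families were put in order by the median log2 change of their members, which is a description and carries no test. At the lower end stood grd (groundhog, hedgehog-related secreted proteins, median -6.003), msp (major sperm proteins, -5.17), nspd (nematode-specific peptides of group D, -4.14), lys (lysozymes, -3.84), asp (aspartyl proteases, -3.65), nspc (nematode-specific peptides of group C, -3.19), spp (saposin-like proteins, -2.39) and scav (CD36-like scavenger receptors, -1.97). At the upper end stood sri (chemoreceptors of the serpentine receptor class I, 5.40), cnc (caenacins, antimicrobial peptides, 4.10), fbxb (F-box proteins, 1.44), dyf (genes named for dye-filling of ciliated neurons, 1.30), cdh (cadherins, 1.25), cpt (carnitine palmitoyltransferases, 1.18), cutl (cuticlin-like proteins, 1.15) and tbx (T-box transcription factors, 1.14). Just outside the first 8 from below were cpr (cathepsin B-like proteases) at -1.90 and scl at -1.56, and just outside the first 8 from above were gcy (guanylyl cyclases) at 1.00 and rga at 0.99.

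The number of members behind each median differed widely. In the table, 10 of 16 grd genes, 9 of 30 msp, 6 of 10 nspd, 9 of 18 nspc and 7 of 60 sri genes passed the filter on counts, against 8 of 10 lys, 6 of 6 asp, 19 of 23 spp, 9 of 11 cnc and 97 of 110 fbxb genes. No member of grd, msp, nspd, nspc, cutl or sri had 100 counts in every library, and of fbxb only 1 did. Members of these families could pass through 1 age alone, so their counts and medians describe the genes that passed and not the whole family. With no filter on counts the median was -1.42 for grd and 1.03 for sri. With 0.5 CPM added to each level, medians over the 6 library pairs were smaller in size in families with low levels. They were -3.58 to -3.22 for grd, -2.29 to -1.94 for msp, 1.75 to 1.98 for sri and 1.46 to 1.76 for cnc. That of asp, with more reads, was -3.74 to -3.52. The sizes and the order thus depend on how levels near 0 are treated.

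**Figure D1:**
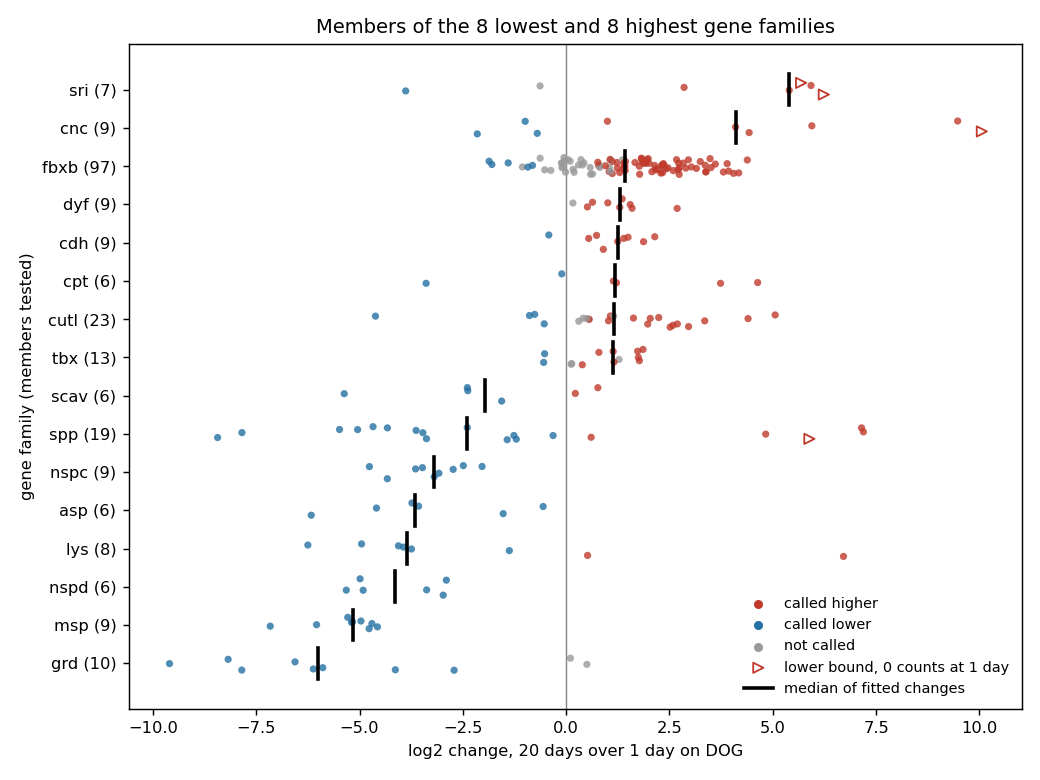
Log2 change from 1 day to 20 days on DOG (horizontal axis) of each tested member of the 8 families with the lowest and the 8 with the highest median (vertical axis, members tested in brackets). Red points were called higher, blue points lower and grey points were not called, open triangles are lower bounds for genes with 0 counts at 1 day, and black bars are family medians, from -6.003 in grd to 5.40 in sri.

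Secreted digestive enzymes were among the families with the largest falls, and several lysozymes and saposin-like genes moved the other way. All 6 asp genes were called lower. The level of asp-2 was 792, 783 and 829 CPM at 1 day and 12.5 and 9.81 CPM at 20 days, a log2 change of -6.17 (SE 0.09, adjusted p = 1.4e-20, edgeR), or 71.9-fold lower. For asp-3, which also takes part in the necrotic death of neurons, the 1 day libraries held 1402, 1428 and 1523 CPM and the 20 day libraries 69.0 and 51.7 CPM. Both genes were far lower in both old libraries than in any young one, but their courses differed, since asp-3 was still at 1640 CPM on average at 5 days and 1450.1 at 10 days, while asp-2 had fallen to 308 and 218 CPM. The fall in asp-1, a protease of intestinal cells, was -3.73 (SE 0.08), that in asp-5 was -3.57 (SE 0.08) and the smallest, in asp-6, was -0.56 (SE 0.06).

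Among the cathepsin B-like cpr genes, the direction was split. The genes cpr-6 (-3.26, SE 0.08), cpr-5 (-3.46, SE 0.07) and cpr-1 (-3.43, SE 0.13) fell, cpr-4 fell by 0.53 (SE 0.07), and cpr-3 (1.78, SE 0.10) and cpr-2 (2.95, SE 0.34) rose. In cpr-1 the level had first gone up, from 434 to 483 CPM at 1 day to a mean of 1572 CPM at 10 days, before it stood at 51.6 and 33.9 CPM at 20 days. In the list, 10 of 12 of these intestinal proteases were called lower and 2 higher, their median was -3.34, and their summed level was 8731 to 9188 CPM at 1 day, 7101 to 7975 CPM at 5 days, 8325 to 9479 CPM at 10 days and 1474 and 1441 CPM at 20 days. The sum at 10 days overlapped that at 1 day, that at 5 days was somewhat lower, and the 20 day libraries lay far below all others, 6.15-fold below 1 day.

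Lysozymes break bacterial cell walls, and the worm has a protist-type family (lys) and an invertebrate-type family (ilys). Of 12 tested, 7 were called lower and 4 higher. The largest fall was in ilys-5, which was at 856, 855 and 907 CPM at 1 day and at 1.35 and 0.176 CPM at 20 days (-10.20, SE 0.23, adjusted p = 4.2e-18, edgeR). The old libraries differed from each other by several fold in this gene, yet both lay far below the young ones. The levels of lys-4 (-6.25, SE 0.14), lys-2 (-4.95, SE 0.16), lys-8 (-4.06, SE 0.09) and lys-1 (-3.94, SE 0.10) fell as well. Of these lys-1, lys-8 and lys-2 had their highest mean at 5 days, as in lys-2 with a mean of 253 CPM at 5 days against 17.3 to 21.3 CPM at 1 day and 0.876 and 0.385 CPM at 20 days.

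The other way went lys-3, at 0.0857, 0.274 and 0.232 CPM at 1 day and 22.3 and 22.4 CPM at 20 days (6.71, SE 0.20), or 105-fold higher. It was near 1 CPM at both ages in between. The gene ilys-3 (7.35, SE 0.20), which takes part in the digestion of bacteria, rose from between 0.0304 and 0.257 CPM to 21.1 and 21.0 CPM, after a mean of 53.6 CPM at 10 days, and ilys-2 rose by 4.09 (SE 0.19). In the RefSeq annotation of assembly WBcel235, lys-1, lys-2 and lys-3 lie next to one another on chromosome V, so neighbouring genes of 1 family were called in opposite directions. The gene lys-7, used in defence against pathogens, changed little between the end points (0.52, SE 0.07) but stood at a mean of 809 CPM at 5 days and 877 CPM at 10 days, against 92.2 to 99.98 CPM at 1 day.

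Saposin-like proteins include pore-forming peptides that kill bacteria. In this family 14 of 19 tested members were called lower and 5 higher. For spp-17 the young libraries held 266, 267 and 278 CPM and the old ones 0.929 and 0.641 CPM, a change of -8.43 (SE 0.13, adjusted p = 2.2e-20, edgeR), with means of 49.9 CPM at 5 days and 11.3 CPM at 10 days on the way. The fall was thus stepwise over all 4 ages. The genes spp-4 (-7.84, SE 0.16), spp-3 (-5.48, SE 0.10), spp-23 (-5.05, SE 0.19) and spp-1 (-4.32, SE 0.12) followed. Against the family, spp-20 rose by 7.19 (SE 0.27) to 13.8 and 14.8 CPM and spp-12, known from the pharynx, by 4.83 (SE 0.17) to 7.55 and 8.15 CPM. No read of spp-21 was counted in the 3 young libraries, and its 2.103 and 1.65 CPM at 20 days were at least 59.2-fold higher than a floor of 3 counts over the group.

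**Figure D2:**
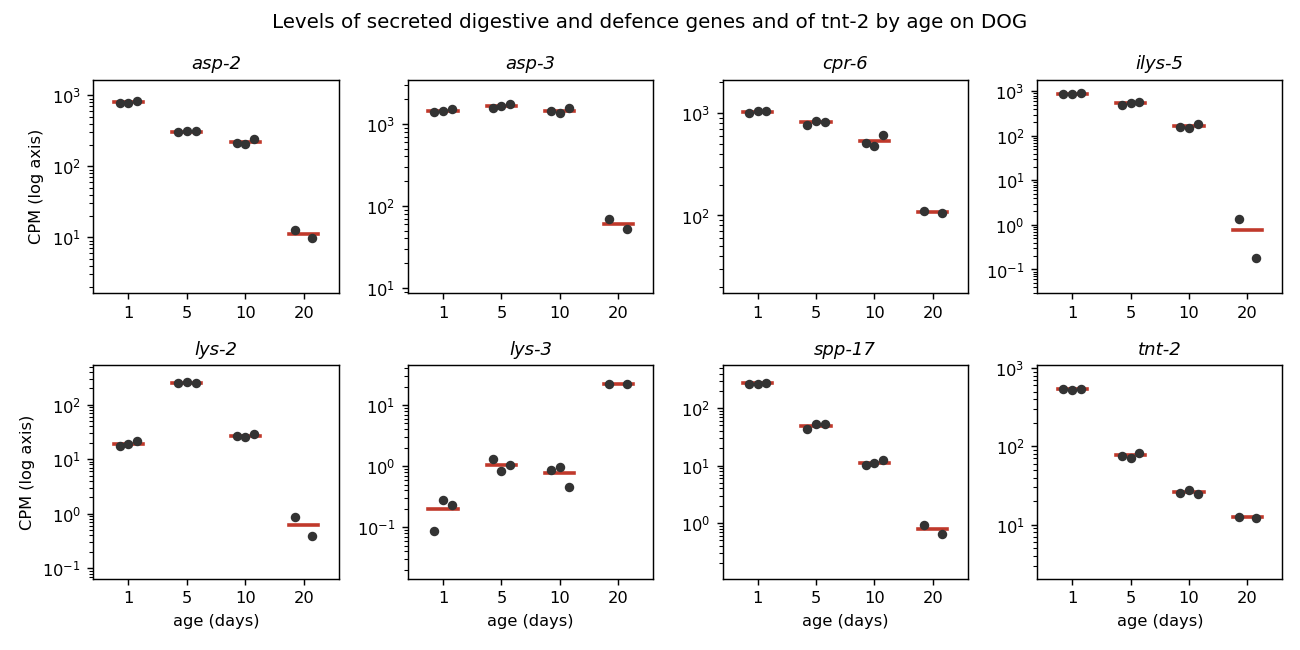
Level in CPM (log axis) of 7 secreted digestive and defence genes and of the troponin gene tnt-2 in each of the 11 libraries by age in days, with the mean of each age as a red line. In every panel but that of lys-3 both 20 day libraries lie below all libraries of the other ages, and in lys-3 both lie at 22.3 and 22.4 CPM, above all others.

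C-type lectins, a large family of sugar-binding and mostly secreted proteins many of which respond to infection, had 113 of 255 genes tested, with 68 called lower, 20 higher and a median of -1.54. The median was -1.47 over the 23 with at least 100 counts in every library and -0.30 when no filter on counts was used, which admits members with very few reads. Falls were seen for clec-265 (-6.49, SE 0.19), clec-50 (-5.83, SE 0.14), clec-186 (-5.77, SE 0.15) and clec-51 (-5.52, SE 0.20), of which clec-50 went from 147, 157 and 160 CPM to 3.54 and 1.97 CPM. The largest rise by the rule used was in clec-264 (3.24, SE 0.11), from 2.60 to 2.91 CPM at 1 day to 25.2 and 26.4 CPM at 20 days. Summed over the family, the level was only 1.38-fold lower at 20 days than at 1 day. Among scavenger receptors, scav-4 (-5.37, SE 0.15), scav-5 (-2.39, SE 0.15), scav-6 (-2.38, SE 0.12) and scav-1 (-1.56, SE 0.08) fell while scav-2 (0.77, SE 0.04) and scav-3 (0.22, SE 0.04) rose.

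Most general markers of the intestine were also lower at 20 days than at 1 day, but their summed level took another course than that of the proteases. The summed level of 6 intestinal markers was 889 to 943 CPM at 1 day and 245 to 250 CPM at 20 days, 5 of the 6 were called lower, and the exception was the transcription factor elt-2. None of the 6 was at 0 at either age. The marker sum had reached 280 to 284 CPM at 5 days and 158 to 193 CPM at 10 days, ages at which the summed proteases were still near their level at 1 day. Single markers differed in course. Unscaled counts of act-5, the marker with the most reads at 1 and 20 days, were 1506 to 2255 at 10 days and 9175 and 10064 at 20 days. Those of vha-6 were 2592 to 4167 at 10 days and 1757 and 1771 at 20 days. Those of ges-1 were 525 to 884 at 1 day, 865 to 1071 at 5 days and 378 and 373 at 20 days. The part of the marker shift in the family changes was not tested.

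Structural genes of muscle fell without an exception in the list. All 22 tested thin and thick filament genes were called lower, with a median of -2.66, and all 22 had their highest mean level at 1 day, a pattern shown by 35.3% of all genes tested. Troponin T, tnt-2, was at 534, 531 and 540 CPM at 1 day and 12.63 and 12.23 CPM at 20 days (-5.43, SE 0.06, adjusted p = 6.9e-22, edgeR), with 76.7 CPM on average at 5 days and 25.8 CPM at 10 days. Troponin I of body wall muscle, unc-27, fell by 3.85 (SE 0.05), a second troponin I, tni-3, by 3.59 (SE 0.07) and the main body wall myosin heavy chain, unc-54, by 3.74 (SE 0.07), from 1873, 1833.5 and 1871 CPM to 147 and 132 CPM.

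Within muscle the size of the fall differed strongly between parts of the sarcomere. The second heavy chain, myo-3, fell by 1.51 (SE 0.07) and the actin gene act-4 by 1.38 (SE 0.05), and both were higher at 20 days than at 10 days, when their means were 31.6 and 203 CPM. The giant M-line protein unc-89 went from 155, 148 and 148 CPM to 121 and 111 CPM (-0.38, SE 0.05), after means of 72.4 CPM at 5 days and 60.4 CPM at 10 days. Summed over the list, the level was 10733 to 10997 CPM at 1 day, 2769 to 2904 CPM at 5 days, 2161 to 2298 CPM at 10 days and 2245 and 2180 CPM at 20 days, so that the 10 and 20 day libraries overlapped and the step lay before day 5. Pharyngeal markers, which include muscle genes of the feeding organ, fell in 4 of 5 and rose in 1, and their sum went from 287 to 308 CPM to about 131 CPM in both old libraries. Of the 6 body wall muscle markers, 5194 to 5371 CPM in sum at 1 day and 648 to 678 CPM at 20 days, several are in the filament list themselves.

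Secreted hedgehog-related proteins, which nematodes use in epidermis and moulting in place of a classical hedgehog pathway, included the family with the lowest median. In the list of groundhog, ground-like and warthog genes, 34 of 58 were tested, 22 were called lower and 6 higher, and the summed level was 405 to 441 CPM at 1 day and 47.2 and 48.1 CPM at 20 days, 8.76-fold lower. For grd-3 the young libraries held 137, 134 and 145 CPM and the old ones 0.228 and 0.128 CPM (-9.60, SE 0.12, adjusted p = 1.4e-21, edgeR). Most of that fall came early, since its mean was 6.49 CPM at 5 days and 0.490 CPM at 10 days. Falls of -8.18 (SE 0.10) in grd-5, -7.85 (SE 0.21) in grd-14 and -7.16 (SE 0.38) in grl-7 had a like course, and grl-17 (2.37, SE 0.23) and wrt-10 (1.72, SE 0.13) rose.

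The patched-related membrane proteins, relatives of the hedgehog receptor that carry a sterol-sensing domain, leaned the other way, with 14 of 24 called higher, 6 lower and a median of 0.43. The level of ptr-22 was 6.17, 6.60 and 6.53 CPM at 1 day and 75.7 and 70.6 CPM at 20 days (3.50, SE 0.07), after means of 16.19 and 21.1 CPM at 5 and 10 days. It was followed by ptr-10 (3.04, SE 0.29) and ptr-8 (2.01, SE 0.06), while ptr-14 fell by 0.61 (SE 0.07). Astacin metalloproteases, some of which shed the old cuticle, were called lower in 12 and higher in 5 of 27 (median -0.42). The gene nas-3 fell by 4.92 (SE 0.29), nas-20 by 3.02 (SE 0.07), and nas-10 rose from 2 counts over the 3 young libraries to 2.47 and 2.53 CPM, a ratio of 118.98 with a 95% interval of 32.6 to 987 from counting error only.

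Cuticlin-like proteins carry the zona pellucida domain of cuticle components, and 14 of 23 tested were called higher and 4 lower, with 65.2% highest at 20 days against 30.5% of all genes. The largest named rises were in cutl-2 (4.40, SE 0.27), cutl-9 (3.35, SE 0.30), cutl-23 (2.58, SE 0.17) and cutl-16 (2.24, SE 0.11), and the fall was in cutl-18 (-4.61, SE 0.27). Levels in this family were low, as for cutl-9, at 0.300, 0.335 and 0.0772 CPM at 1 day and 2.42 and 2.18 CPM at 20 days. Without the second 20 day library the median of the family was 1.75, against 1.15, with 14 of 21 called higher and 2 lower, and without the third 1 day library 12 of 22 were called higher and 2 lower. A list of 8 genes of moulting larvae had a summed level of 73.5 to 76.8 CPM at 1 day, 293 to 303 CPM at 10 days and 199 to 225 CPM at 20 days, with 5 called higher and 3 lower and none at 0. Its main mover was the epidermal matrix gene fbn-1, from 1.76, 2.22 and 2.16 CPM to 69.6 and 56.3 CPM (4.92, SE 0.11). Whether larvae or adult tissue gave these reads was not tested.

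Genes of 4 families known from sperm gave few reads after day 1. Major sperm protein is the cytoskeleton on which nematode sperm crawl and a signal to oocytes, and nspd, ssp and ssq genes are known from sperm. Summed over the 51 genes of these families in the table, the level was 86.8, 90.5 and 101 CPM at 1 day, 3.75 to 5.06 CPM at 5 days, 3.57 to 4.89 CPM at 10 days and 3.10 and 7.20 CPM at 20 days. The fall was complete by day 5, and the second 20 day library held 449 reads of these genes against 177 in the first. The 9 tested msp genes were all called lower with a range from -7.16 to -4.57, as were the 6 nspd genes, such as nspd-2 at 8.74, 8.28 and 10.2 CPM at 1 day and 0.123 and 0.433 CPM at 20 days (-4.99, SE 0.29). Without the second 20 day library the median was -6.20 for msp and -6.18 for nspd, and without the first it was -4.51 and -4.19. Without the third 1 day library 5 msp genes remained tested and were all called lower, and without any 1 young library 5 nspd genes remained, with medians from -4.98 to -4.82. Near-identical msp copies share reads that the counting drops, so levels of single copies are uncertain.

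Other genes used in sperm were divided. Of 13 tested spe genes and sperm phosphatases, 7 were called lower and 3 higher (median -0.36). The sperm phosphatases gsp-3 (-2.52, SE 0.39) and gsp-4 (-2.48, SE 0.31) dropped with the families above, gsp-4 from 60, 88 and 131 counts at 1 day to 0, 2 and 0 counts at 5 days and 17 and 45 counts at 20 days. The gene fer-1, which acts in sperm membrane fusion, rose from 1.89, 1.70 and 1.70 CPM at 1 day to 5.29 and 5.82 CPM at 20 days (1.67, SE 0.12). A marker list of 8 sperm genes other than these families summed to 19.8 to 21.3 CPM at 1 day, 7.93 to 8.73 CPM at 5 and 10 days and 13.7 to 16.7 CPM at 20 days. The nspc genes had another course from nspd. All 9 tested were called lower between the end points and lie on chromosome X, yet all 9 had their highest mean at 5 days, where 20.1% of all genes were highest, as in nspc-9 with 6.22, 7.76 and 8.54 CPM at 1 day, 10.9 CPM on average at 5 days and 0.350 and 0.401 CPM at 20 days (-4.33, SE 0.18).

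Genes of oocytes and the germ line changed in both directions. Markers of oocytes and the distal germ line summed to 4142 to 4313 CPM at 1 day and 4464 to 4508 CPM at 20 days. Among regulators of maternal RNA, 12 of 22 were called lower and 5 higher, a balance that turned to 5 lower and 7 higher when libraries were scaled by their totals alone, with changes of -0.58 (SE 0.05) in spn-4 and -0.55 (SE 0.04) in pos-1, both translational regulators in the early embryo, and of 1.01 (SE 0.05) in the cytoplasmic poly(A) polymerase gld-2. Replication genes moved together, with 13 of 15 called higher and none lower, but by little (median 0.40). The licensing factor cdt-1 went from 65.1, 65.4 and 59.8 CPM to 113 CPM in both old libraries (0.84, SE 0.05), the single-strand binding protein rpa-1 changed by 0.75 (SE 0.05) and the helicase subunit mcm-5 by 0.65 (SE 0.05), and of these 15 genes 86.7% were highest at 10 days.

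Among cyclins and mitotic kinases 11 of 17 were called higher and 3 lower. The largest rises were those of the cell cycle kinase cdk-2 (1.60, SE 0.06), from 16.97, 18.7 and 17.5 CPM to 53.9 CPM in both old libraries, and of cyclin D, cyd-1 (1.59, SE 0.08). P granule genes were called higher in 8 of 12, with the Piwi protein prg-1 at 0.89 (SE 0.04), and lower in 3, with meg-1 at -0.44 (SE 0.04). Genes of the meiotic axis and synapsis were called higher in 8 and lower in 8 of 21, shares of 38.1% that lie near those of all genes. Among them were the cohesin rec-8 at 1.06 (SE 0.04) and the break-forming enzyme spo-11 at -0.47 (SE 0.05). With libraries scaled by their totals alone, 11 were called higher and 5 lower. Eggshell and yolk uptake genes had a median of 0.02, and 92.9% of the 14 were highest at 5 days.

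Nearly all cytosolic ribosomal protein genes fell. Of 77 tested cytosolic ribosomal protein genes, 76 were called lower and none higher, in a narrow range around a median of -1.12. The summed level was 108720, 117040 and 120000 CPM at 1 day and 54220 and 57968 CPM at 20 days, 2.06-fold lower. The small subunit gene rps-1 went from 2295, 2629.7 and 2684 CPM to 1354 and 1386 CPM (-0.89, SE 0.06), and the largest fall was in rpl-37 (-1.98, SE 0.18). Most of the step lay before day 5, when the sum was 65016 to 74543 CPM. Initiation factors (eif) were called higher in 4 and lower in 4 of 12 (median -0.01) and elongation factors (eef) higher in 2 and lower in 2 of 6 (median -0.09). Proteasome subunits were called lower in 16 and higher in 7 of 32 (median -0.17), as in the core subunit pas-2 with 248, 280 and 274 CPM at 1 day and 145 and 146 CPM at 20 days (-0.88, SE 0.04), and the 7 rises became 4 without the third 1 day or the second 20 day library. The cytosolic chaperonin CCT, which folds actin and tubulin, was called higher in 4 and lower in 2 of 8, with cct-3 at 0.78 (SE 0.05), and neither lower call held without the second 1 day library, without the first 20 day library or with libraries scaled by their totals alone.

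All 9 lipid-binding proteins, small carriers of fatty acids, were called lower (median -1.33), including lbp-7 (-3.34, SE 0.12), lbp-5 (-2.09, SE 0.12), lbp-9 (-1.33, SE 0.06) and lbp-8 (-5.43, SE 0.26), a carrier from lysosome to nucleus. Of 14 desaturases and elongases 7 were called lower, 2 higher and 5 neither, with a median of -0.19. The fat desaturases alone were called higher in 2 and lower in 2 of 6 (median -0.07). The elongase elo-6 was at 449, 452 and 475 CPM at 1 day and 20.0 and 19.8 CPM at 20 days (-4.53, SE 0.08), its partner in making branched-chain fatty acids, elo-5, changed by -4.30 (SE 0.10) and elo-2 by -3.70 (SE 0.05), whereas the desaturase fat-2 rose by 0.46 (SE 0.05). The old libraries lay below the young ones in each of these 3 elongases.

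Carnitine palmitoyltransferases, which carry fatty acids to mitochondria for oxidation, were called higher in 4 and lower in 2 of 6. The level of cpt-3 was 1.03, 1.19 and 1.00 CPM at 1 day, 7.21 CPM on average at 10 days and 27.1 and 26.4 CPM at 20 days (4.63, SE 0.11, adjusted p = 6e-18, edgeR). Next came cpt-4 (3.74, SE 0.15), cpt-1 (1.22, SE 0.04), from 254, 260 and 242 CPM to 581 and 592 CPM, and cpt-6 (1.14, SE 0.06). The one large fall was in cpt-5, from 36.9, 40.8 and 40.5 CPM to 3.87 and 3.67 CPM (-3.39, SE 0.11), and the other lower call, in cpt-2, was lost without the second 1 day library or either 20 day library. Of other families of fatty acid oxidation, enoyl-CoA hydratases (ech) were called lower in 7 of 9 and higher in none (median -1.18) and acyl-CoA dehydrogenases (acdh) lower in 8 and higher in 3 of 13 (median -0.66).

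Antimicrobial peptides of the caenacin and nlp type, which the epidermis secretes after infection or wounding, were called higher in 12 and lower in 7 of 19 tested (median 1.15), and their summed level was 262 to 278 CPM at 1 day and 506 and 572 CPM at 20 days. The largest rise of any gene under the rule was in this group. No read of cnc-1 was counted at 1 day, its means were 0.223 CPM at 5 days and 1.91 CPM at 10 days, and at 20 days it stood at 31.7 and 35.5 CPM, at least 1067-fold higher than the floor of 3 counts over the 3 young libraries. For cnc-6 the young libraries held 0.171, 0.0609 and 0.0772 CPM and the old ones 64.02 and 75.1 CPM (9.47, SE 0.17, adjusted p = 1.3e-19, edgeR). Both genes went up at each age, so that no old library overlapped a younger one.

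The level of cnc-4 (5.95, SE 0.10) reached most of its rise by day 5, when its mean was 43.6 CPM against 1.58 to 2.27 CPM at 1 day and 107 and 119.3 CPM at 20 days, and cnc-2 (4.10, SE 0.10) behaved alike. Among the nlp genes, nlp-34 rose by 4.74 (SE 0.08) and nlp-29, the best known wound- and infection-induced member, by 1.15 (SE 0.08), from 19.8, 21.0 and 24.4 CPM to 44.1 and 53.1 CPM. For nlp-32, with 0.0857, 0 and 0.0257 CPM in the young libraries and 4.73 and 5.82 CPM in the old ones, the ratio was 168 with a 95% counting interval of 57.2 to 816. Large falls stood against these, in nlp-24 (-6.50, SE 0.15), nlp-33 (-5.73, SE 0.14) and cnc-8 (-2.15, SE 0.12). Without the second 20 day library 8 cnc genes were tested and their median was 2.49, and without the first it was 4.22 over 9. Epidermal markers were called higher in 3 and lower in 3 of 6, with sums of 163 to 173 CPM at 1 day and 190 to 194 CPM at 20 days.

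**Figure D3:**
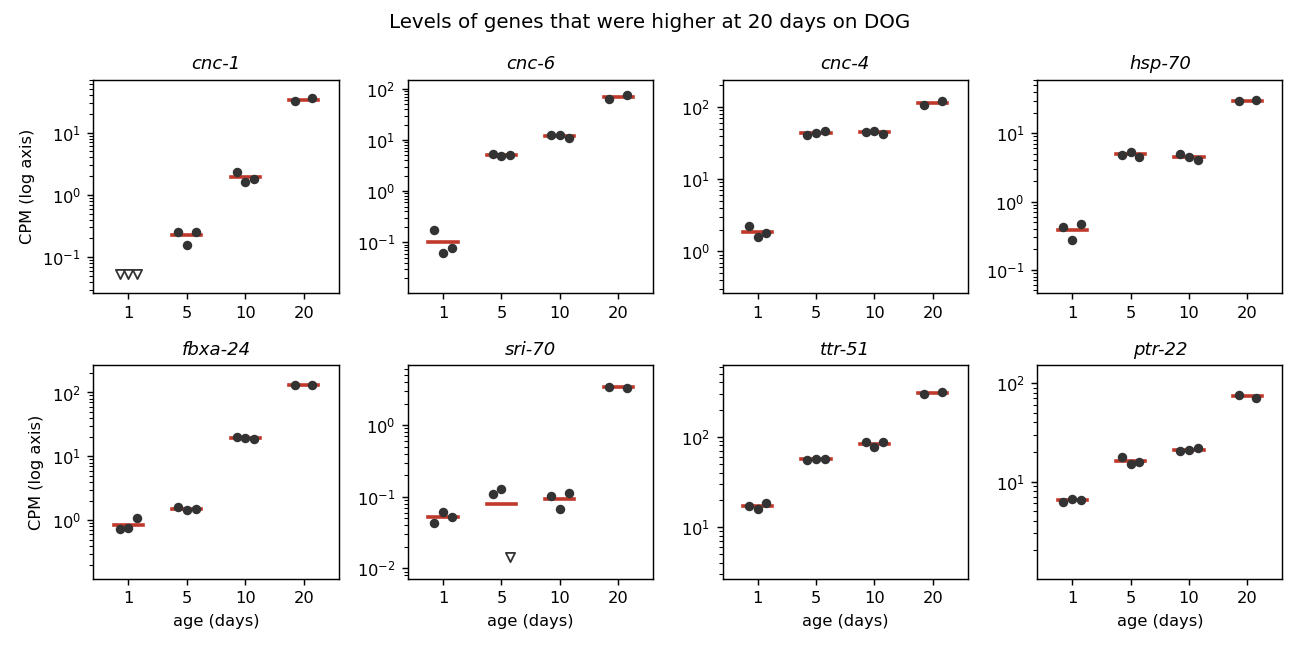
Level in CPM (log axis) of 8 genes higher at 20 days in each of the 11 libraries by age in days, with the mean of each age as a red line and open triangles at the lower edge for libraries with 0 counts. Both 20 day libraries lie above all others in each panel. The gene sri-70 stays near or below 0.1 CPM until day 10, and cnc-6 and ptr-22 go up at each age.

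Chemoreceptors of the sri family gave few reads, and 7 of 60 passed the filter, with 5 called higher and 1 lower. The gene sri-39 had 0 counts at 1 day and 2.19 and 2.55 CPM at 20 days, at least 75.3-fold higher than the floor. The level of sri-70 went from 0.0429, 0.0609 and 0.0515 CPM to 3.42 and 3.35 CPM (5.93, SE 0.34), with 0.0782 and 0.0941 CPM on average at 5 and 10 days. Against them, sri-40 fell from 18.1, 18.9 and 17.9 CPM to 1.14 and 1.33 CPM (-3.88, SE 0.11). Without the second 20 day library 5 members were tested and 3 called higher. Genes named for dye-filling, most of which build the cilia of sensory neurons, were called higher in 8 of 9. Among them were dyf-11 at 2.69 (SE 0.19) and dyf-2 at 1.60 (SE 0.15), both used in intraflagellar transport. Only 2 dyf genes had at least 100 counts in every library, with a median of 0.30. Without the third 1 day library 7 of 9 were called higher, with a median of 0.87. Guanylyl cyclases, many of which serve sensory neurons, were called higher in 15 of 21, with 1 lower.

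Cadherins, which hold cells together, were called higher in 8 of 9. The largest rises were those of cdh-7 (2.14, SE 0.20) and cdh-10 (1.87, SE 0.12), and the member with the most counts, the Fat-like cadherin cdh-4, went from 101, 104.1 and 93.0 CPM to 273 and 248 CPM (1.39, SE 0.06), after a mean of 302 CPM at 10 days. General neuronal markers were called higher in 3 and lower in 3 of 8, with a median log2 change of 0.01. Their sum was 276 to 289 CPM at 1 day and 408 to 413 CPM at 20 days. That sum leaned on snb-1, which had the most reads of the 8 and rose by 0.83, while rab-3 (-0.81), ric-4 (-0.76) and unc-119 (-0.42) fell. The higher sum was thus not shared by all markers, and its part in the chemoreceptor and cilium genes was not tested.

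FMRFamide-like peptide genes were called lower in 18 and higher in 5 of 29 (median -0.56), within a narrow range from -1.54 (SE 0.16) in flp-33 to 1.34 (SE 0.09) in flp-16, which was at 4.67, 4.99 and 4.81 CPM at 1 day and 12.18 and 12.35 CPM at 20 days. Insulin-like peptides, ligands of the DAF-2 receptor, were called higher in 10 and lower in 5 of 27 (median 0.05). The higher share, 37%, lay near the 38.5% of all genes, and the lower share, 18.5%, was below their 38%. Rises were seen in ins-2 at 4.84 (SE 0.32), ins-22 at 3.36 (SE 0.15) and ins-7, an agonist, at 2.49 (SE 0.19), and the lowest change of any member was -4.29. Only 1 member had at least 100 counts in every library. For daf-28, another ligand, the change was 0.06 (SE 0.12, adjusted p = 0.67, edgeR).

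F-box proteins choose targets for ubiquitin ligases, and the worm genome holds an unusually large number of them. Of 255 tested out of 355, 149 were called higher and 34 lower, with a median of 1.04. Of the 32 with at least 100 counts in every library 14 were called higher and 13 lower, with a median of 0.05. The largest change by the rule was in fbxa-24, at 0.729, 0.761 and 1.08 CPM at 1 day, 1.52 CPM on average at 5 days, 19.6 CPM at 10 days and 132 and 133 CPM at 20 days (7.22, SE 0.08, adjusted p = 4.5e-22, edgeR). Few reads stood behind fbxa-158, with 3.35 and 3.29 CPM at 20 days and a ratio of 158 with a 95% counting interval of 43.3 to 1306, and fbxa-72 fell by 5.54 (SE 0.12). Summed over all F-box genes the level was 1032 to 1059 CPM at 1 day and 1415 and 1355 CPM at 20 days, 1.32-fold higher, and at 5 and 10 days it was already 1326 to 1422 CPM.

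Most genes of the fbxb subfamily were highest at 10 days. Of its 97 tested members 63 were called higher and 5 lower, and 89.7% were highest at 10 days, where 14.1% of all genes were. For fbxb-70 the level was 0.0857, 0.0609 and 0.154 CPM at 1 day, 0.976 and 2.32 CPM on average at 5 and 10 days and 2.42 and 2.1 CPM at 20 days (4.38, SE 0.31). The genes fbxb-102 (4.18, SE 0.37), fbxb-71 (3.90, SE 0.26) and fbxb-18 (3.81, SE 0.23) had like values, and fbxb-67 fell by 1.86 (SE 0.12). All these levels were low, with a median over the 97 genes of 433 counts summed over the 11 libraries, and 56 of the 97 lie on chromosome II, many next to one another, where reads shared by copies are dropped by the counting.

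T-box factors shared the maximum at 10 days with 9 of 13 members, 8 of 13 being called higher at 20 days than at 1 day and 2 lower. The genes tbx-8, which acts in shaping the embryo, tbx-43 and tbx-38, which acts in early embryonic fate, rose by 1.86 (SE 0.21), 1.75 (SE 0.14) and 1.73 (SE 0.19), and tbx-36 fell by 0.54 (SE 0.07). For tbx-38 the means were 2.70 CPM at 5 days and 6.13 CPM at 10 days, against 0.643, 0.761 and 0.900 CPM at 1 day and 2.56 and 2.68 CPM at 20 days. A list of 14 embryonic genes, which includes tbx-38, had sums of 22.7 to 24.3 CPM at 1 day, 37.8 to 40.2 CPM at 10 days and 22.6 to 22.97 CPM at 20 days, with 6 of 9 tested called higher, 2 lower and 1 of the 14 at 0 in both old libraries. Its part in the T-box and fbxb values was not tested.

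The inducible hsp-70 gene and several small heat shock genes rose. The cytosolic hsp-70 gene was at 0.429, 0.274 and 0.463 CPM at 1 day, 4.89 and 4.47 CPM on average at 5 and 10 days and 29.6 and 30.3 CPM at 20 days (6.26, SE 0.14, adjusted p = 2.6e-18, edgeR). Of 10 tested small heat shock genes 4 were called higher, 3 lower and 3 neither, shares of 40% and 30% that lie near those of all genes. Their summed level was 1883 to 2023 CPM at 1 day and 2111 and 2169 CPM at 20 days. The classic heat-shock reporters hsp-16.41 (5.64, SE 0.18) and hsp-16.2 (5.21, SE 0.23) rose, from 0.257 CPM or less and 0.335 CPM or less to 11.2 and 12.12 CPM and to 10.3 and 10.2 CPM, and hsp-12.6, which depends on the insulin pathway, rose by 4.02 (SE 0.13). The gene hsp-12.2 fell from 32.9, 31.6 and 34.6 CPM to 5.43 and 6.01 CPM (-2.53, SE 0.09), and the constitutive hsp-1 changed by -0.26 (SE 0.05).

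Among families that handle foreign compounds, cytochromes P450 were called higher in 24 and lower in 21 of 66 (median 0.14), shares of 36.4% and 31.8% that lie near those of all genes, with cyp-33C8 at 2.83 (SE 0.06), from 8.44, 8.399 and 8.31 CPM to 59.8 and 59.4 CPM, and cyp-13A2 at -4.01 (SE 0.13). UDP-glucuronosyltransferases, which tag compounds for export, were called lower in 32 and higher in 18 of 63 (median -0.42), and of the members that met the rule for naming, ugt-44 changed by -3.63 (SE 0.19) and ugt-33 by 3.65 (SE 0.15). Glutathione S-transferases were called lower in 20 and higher in 9 of 39 (median -0.61). The gene gst-10 went from 30.1, 35.4 and 35.9 CPM to 0.491 and 0.417 CPM (-6.22, SE 0.15), gst-26 (-5.83, SE 0.10) and gst-27 (-5.38, SE 0.10) fell by somewhat less, and gst-37 rose from 0.0913 CPM or less to 4.98 and 6.16 CPM (6.95, SE 0.37).

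Nuclear hormone receptors, ligand-gated transcription factors that are unusually many in this worm, were called higher in 89 and lower in 34 of 190 tested (median 0.36), and 51.6% were highest at 20 days against 30.5% of all genes. The largest fall was in nhr-114, a receptor needed for fertility on some diets, from 257, 212 and 210 CPM at 1 day to a mean of 13.4 CPM at 5 days and 4.59 and 4.41 CPM at 20 days (-5.65, SE 0.10). The gene nhr-67, of the tailless type, rose by 3.05 (SE 0.17). Secreted transthyretin-related proteins were called lower in 24 and higher in 18 of 47 (median -0.32). The higher share, 38.3%, was near the 38.5% of all genes, and the lower share, 51.1%, was above their 38%. Changes of members went down to -2.98. A pair rose strongly at high level, ttr-51 from 16.8, 15.9 and 18.4 CPM to 299 and 310 CPM (4.15, SE 0.06) and ttr-45 from 48.9, 46.9 and 53.4 CPM to 661 and 695 CPM (3.77, SE 0.06).

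Metal-binding genes were split within each pair. The metallothionein mtl-1 was at 2.53, 2.19 and 2.08 CPM at 1 day and 54.8 and 68.6 CPM at 20 days (4.79, SE 0.13), having reached 65.3 CPM on average at 5 days, whereas mtl-2 fell by 0.86 (SE 0.06). The iron store ftn-1 went from 1.84, 1.92 and 2.24 CPM to 32.3 and 32.8 CPM (4.00, SE 0.11), after a mean of 92.9 CPM at 5 days, whereas ftn-2 fell by 1.26 (SE 0.06). In mtl-1 and ftn-1 the higher level was thus already present at 5 days.

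**Figure D4:**
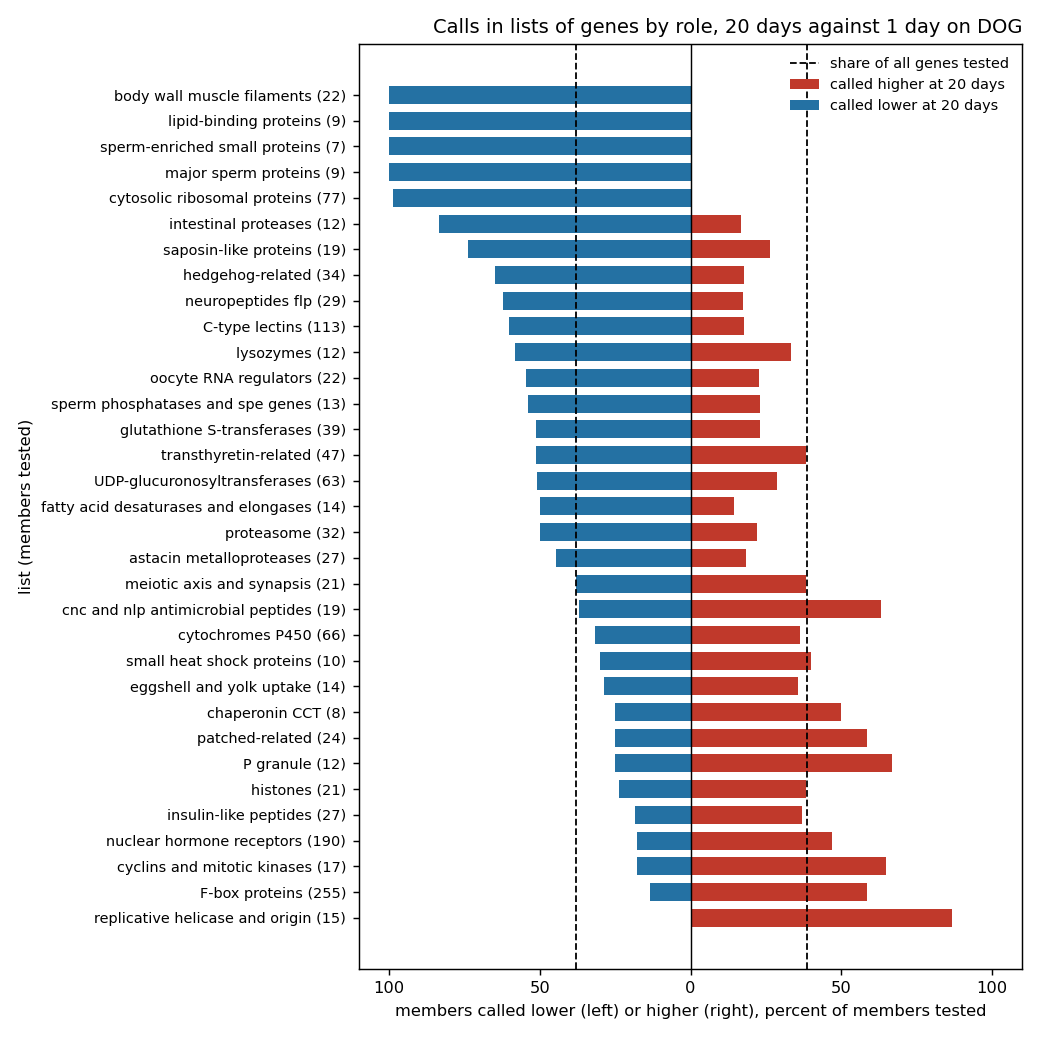
Share of tested members called lower (blue, left) or higher (red, right) at 20 days than at 1 day, in percent, in each list of genes by role with at least 6 tested members (vertical axis, members tested in brackets). Dashed lines mark the shares over all genes tested, 38% lower and 38.5% higher, and in the lists of muscle filaments, lipid-binding proteins and both small sperm protein families every tested member is called lower.

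The 5 and 10 day libraries allowed the families to be read again at ages that the order did not compare. This reading was not independent, since the fit shares 1 estimate of the spread and the filter summed counts over all 11 libraries. Reads at 5 and 10 days thus helped to decide which members were tested. Of the tested members, 89.7% in fbxb and 69.2% in tbx were highest at 10 days. With only the ages of the order used, 7 of the 8 lowest and 6 of the 8 highest families stayed, without nspd, sri and tbx. Between 5 and 10 days 3505 genes (23.7%) were called higher and 3641 (24.6%) lower. The median change of members had the sign of the longer interval in 7 of the 8 lowest and 8 of the 8 highest families, where 46.6% of the 176 families were negative and 53.4% positive. The exception was msp (0.82, with no member called), whose reads were already near 0 at 5 days. Among families that kept the sign, the median was close to 0 in cnc (0.03) and asp (-0.04). No member of nspd (-0.60) or sri (0.28) was called in either direction, so the shared sign says little in these families. Across the 176 families the medians of the intervals had a Pearson correlation of 0.41 and a Spearman correlation of 0.49, given as a description, since families are not independent replicates.

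Calls in the second reading were uneven between families. The fbxb genes were called higher in 57 of 97 and lower in none between 5 and 10 days, with a median of 0.82, T-box genes were called higher in 9 of 13 (0.70), cadherins in 5 of 9 (0.64), and all 9 nspc genes (-1.53) and 5 of 10 grd genes (-1.31) were called lower. The asp family hardly moved as a whole, with a median of -0.04, 2 members called higher and 2 lower. Muscle filaments were called lower in 15 of 22 and higher in 1, and replication genes higher in 13 of 15. Ribosomal proteins were called lower in 12 of 77, a smaller share than the 24.6% of all genes. Cytochromes P450 were called lower in 33 and higher in 8 of 66, and UDP-glucuronosyltransferases lower in 37 of 63. FMRFamide-like peptides, mostly lower over the long interval, were called higher in 10 and lower in 1 of 29.

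**Figure D5:**
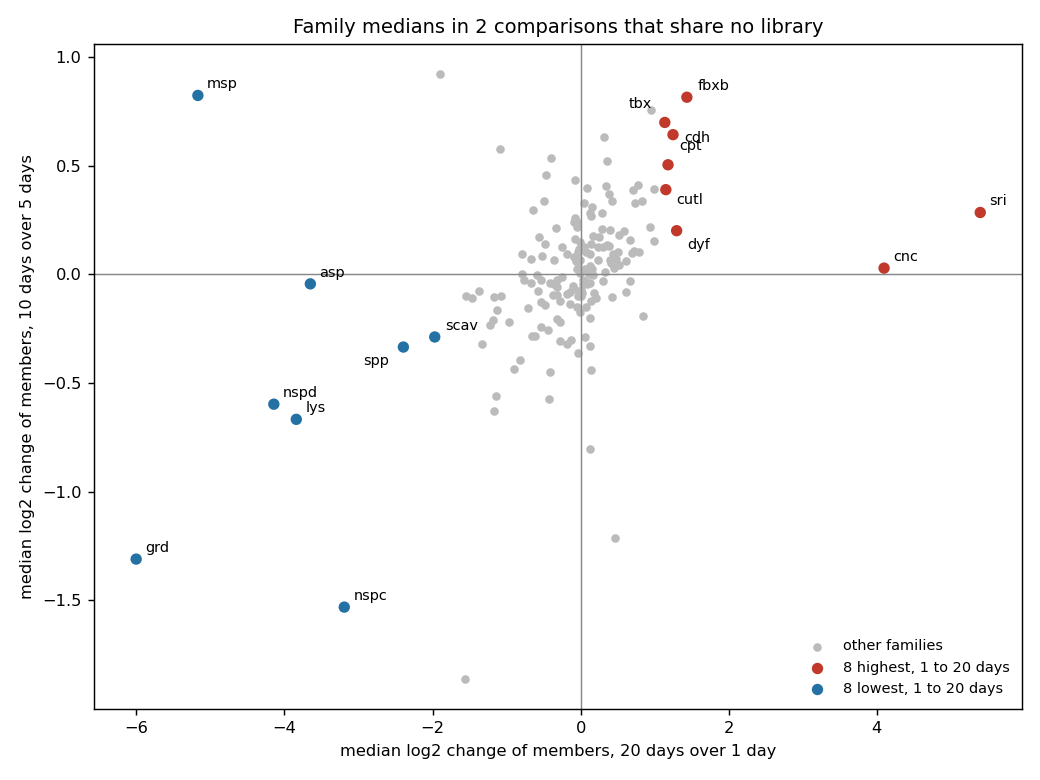
Median log2 change of the members of each of the 176 families from 1 to 20 days (horizontal axis) and from 5 to 10 days (vertical axis), with the 8 lowest families in blue and the 8 highest in red. The msp family is the only one of the 16 on opposite sides of 0 in the 2 comparisons, and nspc at -1.53 and grd at -1.31 are the lowest of the 16 from 5 to 10 days.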

How the data were processed

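Reads of total RNA from whole worms (50-base single reads) were aligned with TopHat 1.4.1 and counted per gene with htseq-count in union mode on the WS220 annotation by the authors, who deposited raw counts of reads per gene. Whether strand was used is not given in the sources used here, so overlapping and antisense genes cannot be told apart, and reads shared by near-identical copies were dropped.

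Genes with at least 100 counts over the 11 libraries were fitted in 1 model over the 4 ages with edgeR 4.0.16 (R 4.3.3; TMM factors 0.946 to 1.076; quasi-likelihood F-test; Benjamini-Hochberg adjustment over 14773 genes; called at 0.01). The script was tested on simulated data. CPM used TMM-scaled totals. Prefix families, role lists and named genes were chosen with earlier results of these data known. Named by rule were up to 4 called members with the largest change in the direction of the family median and 1 in the other direction, provided that each library of the age with the higher level had 100 counts or more and that the ages did not overlap. Members of role lists were also named for their role. Folds against 0 counts used a floor of 3 counts over the group, and ratios on 1 to 3 counts have 95% intervals. Intervals and floors cover counting error only. Replicate numbers did not pair the libraries. Alternatives were DESeq2 1.42.0, library-size scaling, other filters, a replicate block, and leaving out each library.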

Additional observations from a re-analysis of the deposited data

How the results depend on the processing

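A total of 208 named genes and 62 families and lists were computed again under up to 12 alternatives each, of which the filter on every library left no tested member, and thus no value, in grd, msp, nspd, nspc, cutl, sri, the lists of major and small sperm proteins and the inducible hsp-70 genes. Of the named-gene results 2379 kept their direction and call and 14 lost the call, and none turned. These genes were chosen for large, called changes in the same libraries, so that outcome was largely fixed in advance. A gene that an alternative left untested or without an adjusted p is in neither count. With at least 100 counts in every library, 3391 genes were called higher and 3362 lower at 20 days, by construction from fewer genes tested, and only 2 of the 8 lowest and 0 of the 8 highest families stayed at their end. No filter kept 5 and 1, and at least 10 genes per family kept 2 and 3, so the order depends on which low-count genes and small families enter. Under the filter in every library medians turned for fbxb (to -0.85, 1 gene), cnc (-0.74), sperm phosphatases and spe genes (0.37), small heat shock proteins (-0.19), cytochromes P450 (-0.38), metallothioneins (-0.90), ferritins (-1.30), fbxc (-0.02) and eggshell and yolk uptake genes (-0.02, and -0.0008 without a filter), and under library-size scaling for meiotic genes (0.13). That scaling shifted the median of all genes by 0.15 and put 57.4% of calls on the higher side, against 50.4%. DESeq2 called 5370 genes higher and 5456 lower.

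Leaving out each library gave 5230 to 5508 genes called higher and 5144 to 5450 lower at 20 days, 3095 to 3362 higher and 3194 to 3548 lower between 5 and 10 days, and kept 6 to 7 families at each end. Those left out most often were nspd and tbx, which had fewer tested members or a smaller median. Same-numbered libraries did not deviate together (correlations from -0.073 to 0.078), and with a replicate block 5592 genes were called higher and 5471 lower at 20 days and 3489 higher and 3650 lower between 5 and 10 days. For low-count families (msp, nspd, nspc, grd, sri, fbxb), counting error limits what single members show.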

Other observations

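Outside the families described, the largest rises under the same conditions were in C54F6.15 and clx-1, neither of which had a read at 1 day. The level of C54F6.15 was 22.8 and 24.6 CPM at 20 days, at least 753-fold higher than the floor of 3 counts over the 3 young libraries, after means of 0.0788 CPM at 5 days and 0.367 CPM at 10 days. For clx-1, whose name stands for a collagen-like protein outside the col family, the old libraries held 7.53 and 6.65 CPM, at least 224-fold higher than the floor, against 0.245 and 0.205 CPM at 5 and 10 days. Both genes were thus near 0 until day 10 and clearly detected in both 20 day libraries.

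Among other prefix families, P-glycoprotein transporters (pgp), which export small molecules, were called higher in 9 and lower in 3 of 14, with 57.1% highest at 20 days, and sdz genes, named for their dependence on SKN-1 in the embryo, were called higher in 17 and lower in 3 of 28, with 53.6% highest at 10 days. Without the third 1 day library 10 sdz genes were called higher, and without the first 20 day library 11.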
